A study of Mus musculus with 5 samples.

Results

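The 10 genes described here are Atf4, the transcription factor at the centre of the integrated stress response, its partners Atf5, Ddit3 and Cebpg, the feedback and stress regulators Trib3, Sesn2 and Chac1, and the amino acid enzymes Asns, Psat1 and Phgdh. They were chosen by gene name, with their TPM values at 1 h and at 8 h already in view, from 46078 genes in the table of each library. TPM is a gene's share of the transcripts after correction for length, and sums to an equal total in each library. Because those values guided the choice, the differences between 8 h and 1 h are given for the members as a description, and where calls of a fit across all genes are counted, nothing is read from the members' count.

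The cells were primary neural precursor cells of the adult subventricular zone, a stem cell niche beside the lateral ventricles, and served in the study as an undifferentiated comparison for astrocytes made from embryonic stem cells. The labels give the donors as female C57BL/6 mice with no mutation, aged 5 to 8 weeks (the study's methods give a greater age). All libraries were sham controls: cells grown with EGF and FGF on coated plates received PBS, and RNA was isolated 1 h later in 2 libraries (replicates 1 and 2) and 8 h later in 3 libraries (replicates 13, 14 and 15). No library of untouched cells was analysed here, so every value is of cells that had received PBS, and the 2 times are compared with each other.

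In the integrated stress response, kinases that sense amino acid shortage, unfolded protein, haem shortage or double-stranded RNA phosphorylate the initiation factor eIF2. This lowers general translation while the Atf4 messenger, which carries upstream reading frames, is translated more. ATF4 protein then pairs with C/EBP proteins on composite DNA elements and raises genes of amino acid synthesis, transport and tRNA charging, among them genes that later damp the response. Messenger levels, which are what was measured, do not show how much ATF4 protein was made.

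Before the members, 3 properties of the libraries matter. The identifiers in the labels fall into 2 number series, of which series 1 holds both 1 h replicates and 8 h replicate 14, and series 2 holds 8 h replicates 13 and 15. The sources used here do not say what these series mean. The 4 Y-linked genes examined summed to 181 and 138 TPM at 1 h and to 158 TPM in the 8 h replicate 14, whereas replicates 13 and 15 had 0.0253 and 0 TPM and were alone in a high Xist (165 and 199.7 TPM), so 3 libraries go against the label of female donors. Mitochondrial transcripts took 10.7% to 11.1% of TPM in series 1 against 6.23% and 6.30% in series 2. The count table, which lists 7 of the members and totals 13988166 to 18572154 counts per column, is a doubtful guide to single 8 h libraries. Its column named 8 h replicate 13 matched the TPM table of replicate 14 (77.8% of 7480 genes within 0.1 on the log2 scale, against 24.3% for its own table), and its column named 8 h replicate 15 matched the table of replicate 13 (77.9% against 40.4%). For the remaining column, named 8 h replicate 14, no 8 h table came close, its best match being 38.5% with 1 h replicate 2. Single libraries are therefore described by TPM. The column that matched the table of replicate 14 carries an identifier of series 2. The series of replicate 14 is therefore given as labelled and is not settled, here and in all comparisons by series below.

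The cells carried the markers of their label, beside markers of other neural lineages. All 10 neural stem and precursor markers, among them Nes, Sox2 and Fabp7, had a mean of at least 1 TPM. They summed to 11480 to 14940 TPM per library, with Fabp7 alone at a mean of 8582 TPM. Oligodendrocyte-lineage markers summed to 1725 to 2557 TPM per library, mature astrocyte markers to 491 to 827 TPM and neuronal markers to 43.2 to 68.3 TPM. Of markers of other cells, 0 of 5 microglial, 2 of 5 endothelial, 1 of 4 ependymal, 5 of 5 neuronal, 6 of 7 oligodendrocyte-lineage and 5 of 5 mature astrocyte genes reached that mean. Aif1, Tmem119, Cldn5, Cdh5 and Tmem212 were listed at 0 in every library.

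Promoter sequence is shown for 4 members, 3 because they hold a motif match (Chac1, Trib3 and Asns) and Cebpg because it had the largest difference between the times. Windows examined run from 250 bases before to 50 after the RefSeq start site (GRCm38.p6), and all 10 members had at least 1 (12 windows in all). They were searched on both strands for TGATGNAA, the letters of the composite element that ATF4 and C/EBP proteins share. A match was found in the windows of 3 of 10 members, Chac1, Trib3 and Asns, against 4.51% of 27025 genes. Capitals mark the match, which begins 193 bases before the start site in Chac1 and 23 bases before it in Asns, and 14 bases after it in Trib3. For Chac1 (chr2:119350992-119351241, plus strand), Asns (chr6:7693210-7693459, minus strand) and Cebpg (chr7:35056567-35056816, minus strand) the 250 bases before the start site are printed, and for Trib3 (chr2:152344028-152344057, minus strand) the 30 bases around the match, all 5′ to 3′.
Chac1: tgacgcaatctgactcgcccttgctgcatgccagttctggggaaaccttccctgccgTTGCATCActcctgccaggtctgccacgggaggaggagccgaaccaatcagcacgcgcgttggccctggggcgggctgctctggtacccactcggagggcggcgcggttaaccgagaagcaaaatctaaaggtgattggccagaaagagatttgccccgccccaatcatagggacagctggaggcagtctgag
Trib3: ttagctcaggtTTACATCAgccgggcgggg
Asns: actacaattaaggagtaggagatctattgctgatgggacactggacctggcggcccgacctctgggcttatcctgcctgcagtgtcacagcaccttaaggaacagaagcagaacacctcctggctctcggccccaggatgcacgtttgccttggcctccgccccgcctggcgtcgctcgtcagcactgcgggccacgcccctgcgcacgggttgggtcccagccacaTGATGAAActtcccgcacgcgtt
Cebpg: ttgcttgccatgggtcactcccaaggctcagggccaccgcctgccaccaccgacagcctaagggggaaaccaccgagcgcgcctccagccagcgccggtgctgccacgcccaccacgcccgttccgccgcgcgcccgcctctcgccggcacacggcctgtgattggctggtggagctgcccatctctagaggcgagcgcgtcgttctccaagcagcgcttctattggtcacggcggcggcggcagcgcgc
Ddit3, which like Chac1, Trib3 and Asns was highest in 8 h replicate 14, had no match in its window. The Cebpg window held no match either and was rich in G and C (71.7%, against a median of 52.7% over all windows). A second motif, TGACG, the core of the cyclic AMP response element, was found in the windows of 4 of 10 members (Atf4, Trib3, Chac1 and Asns), against 23.0% of all genes, and its matches did not overlap those of the first. A match describes letters in a window and does not show binding.

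Averaged over the 5 libraries, the members spanned levels from 2.51 to 297 TPM. Psat1 (mean over libraries 297 TPM), Phgdh (292 TPM) and Atf4 (277 TPM) were the most abundant, and their ranges over libraries overlapped, so their order is not resolved. Sesn2 (117 TPM), Asns (74.3 TPM) and Atf5 (37.1 TPM) followed in that order in all 5 libraries, with no overlap between neighbours. Cebpg (23.8 TPM) and Ddit3 (20.2 TPM) overlapped with each other, and Cebpg also with Atf5. Chac1 (5.55 TPM) and Trib3 (2.51 TPM) were the lowest, and their ranges overlapped although Chac1 was above Trib3 in each library. All 10 members passed the filter used for the fits, a mean of at least 1 TPM, and Atf4 stood at percentile 96.4 of the 13870 genes that did.

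**Figure D1:**
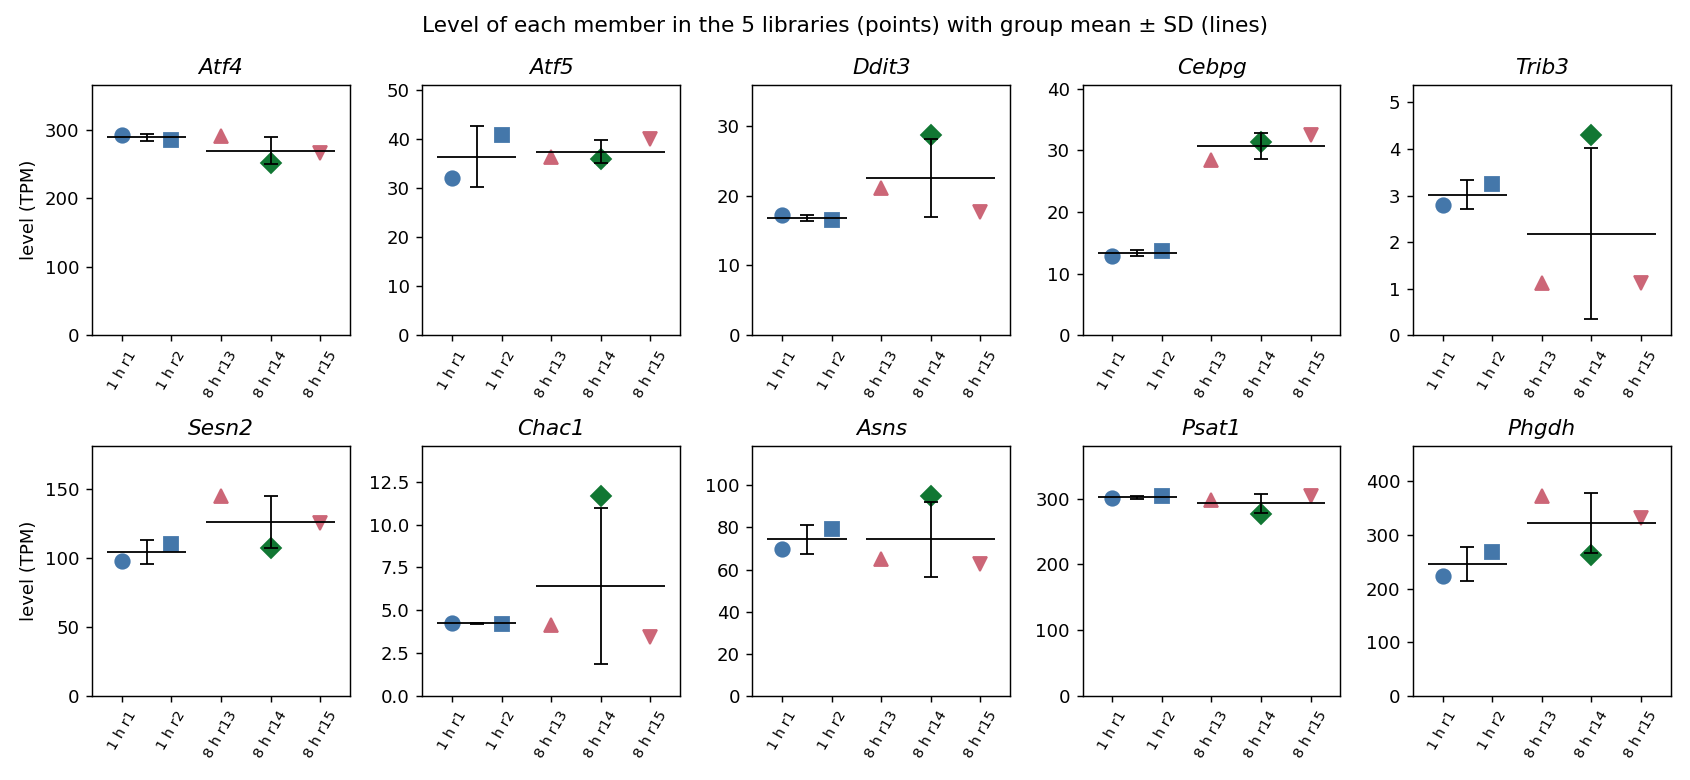
Level of each of the 10 members in TPM (vertical axes, each starting at 0) in the 2 libraries of 1 h (blue) and the 3 libraries of 8 h (red, replicates 13 and 15; green, replicate 14), with the mean of each time as a horizontal line and its SD as an error bar. Cebpg is higher in all 3 libraries of 8 h, from 28.4 to 32.5 TPM against 12.9 and 13.7 TPM. Chac1 stands apart in replicate 14, and Trib3 is highest in replicate 14 and lowest in replicates 13 and 15.

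Of the transcription factors, Cebpg was the member that differed most between the times. Its product, C/EBP gamma, is a leucine zipper protein that pairs with ATF4. Cebpg (chr7:35046422-35056503 in the deposited tables, minus strand) measured 12.9 and 13.7 TPM at 1 h. At 8 h it measured 28.4 TPM in replicate 13, 31.3 TPM in replicate 14 and 32.5 TPM in replicate 15, the order kept for all 8 h values below. All 3 libraries of 8 h lay above both of 1 h, with no overlap and little spread within a time. The mean went from 13.3 ± 0.509 TPM (SD, n = 2) to 30.7 ± 2.08 TPM (SD, n = 3), a ratio of 2.31, and single 8 h libraries stood at 2.14, 2.35 and 2.44 times the 1 h mean. On the log2(TPM + 1) scale, used for all differences below, 8 h minus 1 h was 1.15 ± 0.12 (SE), at percentile 99.4 of the differences of all genes tested. Within identifier series 1 alone, where replicate 14 is the only 8 h library, the difference was 1.17. Without any 1 of the libraries it lay between 1.11 and 1.20. Replicate 14, which differed from replicates 13 and 15 for other members, was thus placed with them for Cebpg. In bulk RNA a change in the level per cell cannot be told apart from a change in the share of cells that express the gene.

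Atf4 itself moved little. It lies at chr15:80255184-80257540 and measured 292 and 285 TPM at 1 h, and 290.3, 252 and 266 TPM at 8 h. The groups overlapped, with replicate 14 the lowest. The mean was 289 ± 4.94 TPM (SD, n = 2) at 1 h and 269 ± 19.5 TPM (SD, n = 3) at 8 h, a log2 difference of -0.10 ± 0.10 (SE). Atf5, a related factor whose messenger also carries upstream reading frames (chr7:44812257-44816658, minus strand), measured 32.1 and 40.9 TPM at 1 h, and 36.4, 35.9 and 40.1 TPM at 8 h. All 3 values of 8 h fell between both of 1 h. The log2 difference of Atf5 was 0.05 ± 0.14 (SE). Atf5 shares 571 bases with Nup62 on the opposite strand (15.9 to 59.5 TPM). The libraries were stranded, but the sources used here do not say whether TPM was computed by strand, so reads of such pairs may be shared.

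Ddit3 encodes CHOP, a C/EBP family protein induced in prolonged stress and linked to cell death. At chr10:127290774-127296288 it measured 17.2 and 16.5 TPM at 1 h, and 21.1, 28.7 and 17.7 TPM at 8 h. Each 8 h library was above both 1 h libraries, replicate 14 clearly and replicate 15 by a small margin. The mean went from 16.8 ± 0.450 TPM (SD, n = 2) to 22.5 ± 5.62 TPM (SD, n = 3), a ratio of 1.33, and the log2 difference was 0.37 ± 0.21 (SE). Within series 1 alone it was 0.73. Ddit3 shares 68 bases with Mars on the opposite strand (105 to 132 TPM).

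Among the regulators, the 8 h libraries of Chac1 and Trib3 did not lie together. For Chac1 it was replicate 14 that stood apart from the other libraries. Chac1 encodes an enzyme that breaks down glutathione and is a target of ATF4. Its levels (chr2:119351229-119354381) at 1 h were 4.27 and 4.20 TPM, beside 4.15, 11.7 and 3.44 TPM at 8 h. Replicate 14 was 2.76 times the 1 h mean, while replicates 13 and 15 lay below both 1 h libraries. The mean at 8 h was 6.42 ± 4.56 TPM (SD, n = 3) against 4.24 ± 0.0464 TPM (SD, n = 2), and the log2 difference of 0.34 ± 0.45 (SE) became -0.13 without replicate 14 and 1.27 within series 1 alone. Its direction over time therefore rests on replicate 14.

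Trib3 encodes a pseudokinase that binds ATF4 and CHOP and damps their activity. Its levels (chr2:152337422-152344032, minus strand) were 2.80 and 3.24 TPM at 1 h, and 1.12, 4.30 and 1.12 TPM at 8 h. Replicate 14 was the highest of the 5 libraries and replicates 13 and 15 the lowest, so the groups overlapped. Replicates 13 and 15 stood at 0.370 and 0.371 times the 1 h mean, and replicate 14 at 1.425 times. The mean was 3.02 ± 0.312 TPM (SD, n = 2) at 1 h and 2.18 ± 1.84 TPM (SD, n = 3) at 8 h, with a log2 difference of -0.48 ± 0.44 (SE) that became -0.92 without replicate 14 and 0.40 within series 1 alone. Trib3 was also the thinnest measurement, with a mean coverage per base of 2.5 to 12.4 reads, against 8.2 to 36.9 for Chac1.

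Sesn2 encodes sestrin 2, which restrains mTORC1 when leucine is short. It lies at chr4:132492032-132510501 on the minus strand and measured 98.0 and 110.5 TPM at 1 h, and 145, 108 and 126 TPM at 8 h. Replicate 14 fell between the 1 h libraries, and the others lay above them. The log2 difference was 0.26 ± 0.15 (SE), and 0.05 within series 1 alone. Sesn2 contains Gm12981 on the same strand, which was low (0.389 to 1.18 TPM).

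The enzymes did not move as a block. Asns, which makes asparagine (chr6:7675169-7693254, minus strand), measured 69.6 and 79.3 TPM at 1 h, and 65.1, 94.9 and 62.8 TPM at 8 h. Replicate 14 was again the highest and replicates 13 and 15 the lowest of the 5. The means were 74.4 ± 6.87 TPM (SD, n = 2) and 74.3 ± 17.9 TPM (SD, n = 3), a log2 difference of -0.03 ± 0.20 (SE) that was 0.35 within series 1 alone. Psat1 and Phgdh catalyse neighbouring steps of serine synthesis from a glycolytic intermediate, and they differed in pattern. Psat1 (chr19:15904678-15947337, minus strand) measured 300.1 and 304 TPM at 1 h, and 298, 277 and 304 TPM at 8 h. The pattern is nearly flat, with replicate 14 the lowest and a log2 difference of -0.04 ± 0.09 (SE). Phgdh (chr3:98313170-98339990, minus strand) measured 224 and 269 TPM at 1 h, and 373, 262 and 331 TPM at 8 h. Replicates 13 and 15 lay above both 1 h libraries and replicate 14 between them. The log2 difference of Phgdh was 0.38 ± 0.17 (SE), and 0.09 within series 1 alone.

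**Figure D2:**
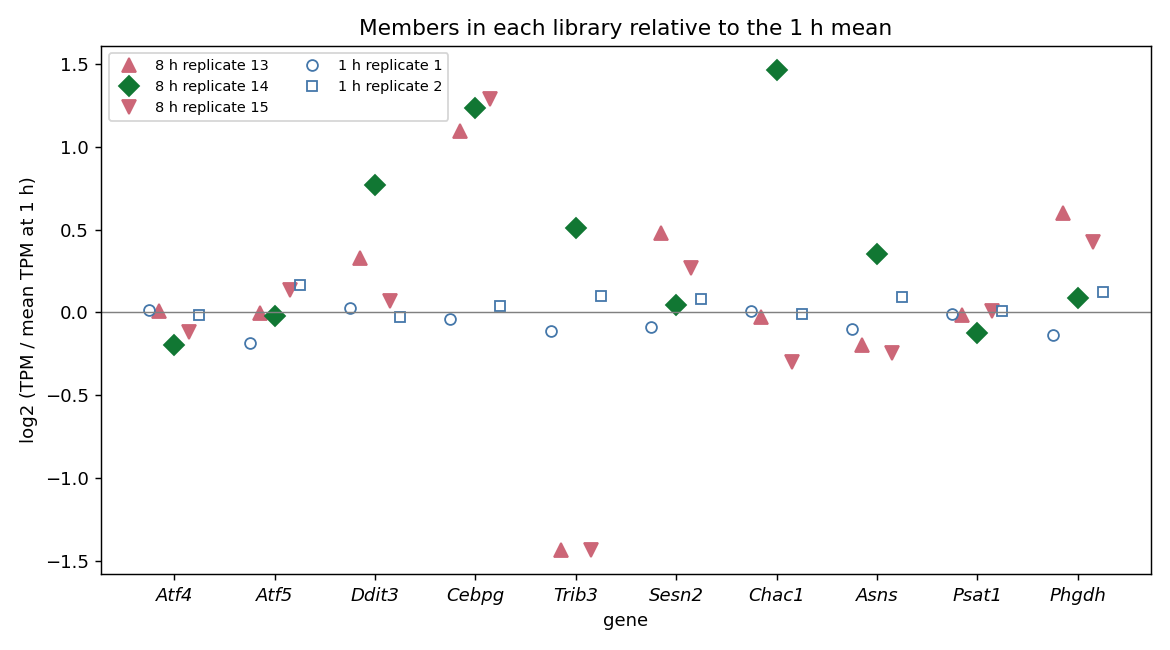
Each member (horizontal axis) in each library as the log2 ratio of its TPM to the mean TPM at 1 h (vertical axis), with open symbols for the 1 h libraries and filled symbols for the 8 h libraries. Cebpg is the member whose 3 filled symbols lie together and far from 0, and replicate 14 (green) lies above replicates 13 and 15 for Ddit3, Trib3, Chac1 and Asns.

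Taking the 10 members as a list, 2 (Ddit3 and Cebpg) had all 8 h libraries above both 1 h libraries, against 23.7% of all genes tested, and 0 had all of them below, against 9.43%. The other 8 overlapped. In the fit across genes (limma, a call needing adjusted p of 0.05 or less and a log2 change above 1), 0 of 10 members were called, against 0.0433% of all genes (6 of 13870, with 1712 genes at an unadjusted p under 0.05). Since this contrast was in view when the members were chosen, nothing is read from these counts. Cebpg was not called with all 5 libraries and was called when 8 h replicate 14 was left out, as were 4.12% of all genes (573 of 13901). Without replicate 14 the 1 h libraries are all of series 1 and the 8 h libraries all of series 2. That call therefore cannot tell time apart from the series. The median log2 difference was 0.16 over the members and 0.10 over all genes, so TPM as deposited placed the typical gene slightly higher at 8 h. Under median-ratio scaling, which shifted the median of all genes by -0.11, Cebpg stood at 1.04, Atf4 at -0.22 and Atf5 at -0.07. Atf5 was the member whose sign this scaling turned.

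Replicate 14 was the highest of the 5 libraries for 4 of 10 members (Ddit3, Trib3, Chac1 and Asns), against 13.5% of all genes tested, and the lowest for 2 of 10 (Atf4 and Psat1), against 22.9%. Within 8 h it stood at 3.85 times the mean of replicates 13 and 15 for Trib3, 3.07 times for Chac1 and 1.49 times for Asns. The contrast of replicates 13 and 15 with replicate 14, fitted with time as a term over all 5 libraries (limma), gave log2 differences of -1.41 ± 0.18 (SE) for Chac1, -1.32 ± 0.21 (SE) for Trib3, -0.56 ± 0.12 (SE) for Asns and -0.54 ± 0.15 (SE) for Ddit3. Those of Phgdh (0.42 ± 0.14, SE) and Sesn2 (0.33 ± 0.14, SE) had the opposite sign, and that of Cebpg was -0.04 ± 0.14 (SE). Chac1 and Trib3 were called, that is 2 of 10 members against 4.02% of all genes (558 of 13870). The same 8 h libraries had been in view when the members were chosen, so this count is a description. Both calls were lost with no filter on the mean TPM, without 8 h replicate 13 and without 8 h replicate 15, and that of Chac1 also with no term for time. Replicate 14 is 1 library, assumed in this fit to vary like the others.

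Several other measures ran with the same division of the 8 h libraries. Beside the mitochondrial share and the Y-linked genes and Xist given above, the 5 mature astrocyte markers summed to 827 and 821 TPM in replicates 13 and 15 and to 491 TPM in replicate 14 (515 and 629 TPM at 1 h). Aldh1l1 made up most of that sum, and S100b did not follow the division (4.72 and 6.37 TPM against 5.73 TPM). The 5 neuronal markers summed to 43.2 and 46.4 TPM against 62.4 TPM (68.3 and 68.1 TPM at 1 h). That sum was carried by Tubb3 and Syt1, while Snap25 and Dcx were higher in replicates 13 and 15 than in replicate 14 and Rbfox3 was mixed. The proliferation gene Mki67 measured 80.3 and 96.2 TPM against 52.1 TPM. The part of these in the levels of Chac1, Trib3, Ddit3 and Asns was not tested.

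The count table gave the same high Chac1, under another name. Chac1 had 70 and 82 counts at 1 h, and 245, 84 and 82 counts in the columns named 8 h replicates 13, 14 and 15. Trib3 had 51 and 72 counts at 1 h, and 111, 29 and 27 counts in those columns. Ddit3 had 156 and 179 counts at 1 h, and 326, 207 and 228 at 8 h. For all 3 genes, and for Asns (1533 and 2072 counts at 1 h, and 2633, 1011 and 1704 at 8 h), the highest column is the one named replicate 13, whose counts over all genes matched the TPM table of replicate 14. The library with high Chac1, Trib3, Ddit3 and Asns was therefore seen in both kinds of file, and which replicate number it carries cannot be settled from them. With edgeR's quasi-likelihood test on the counts, 0 of 7 members were called, against 0% of all genes (0 of 7590, with 199 genes at an unadjusted p under 0.05 in edgeR and 227 in DESeq2). That test included the column named 8 h replicate 14, which matched no TPM table of 8 h. Atf4, Cebpg and Phgdh are not listed in the count table, so their TPM could not be set beside counts.

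**Figure D3:**
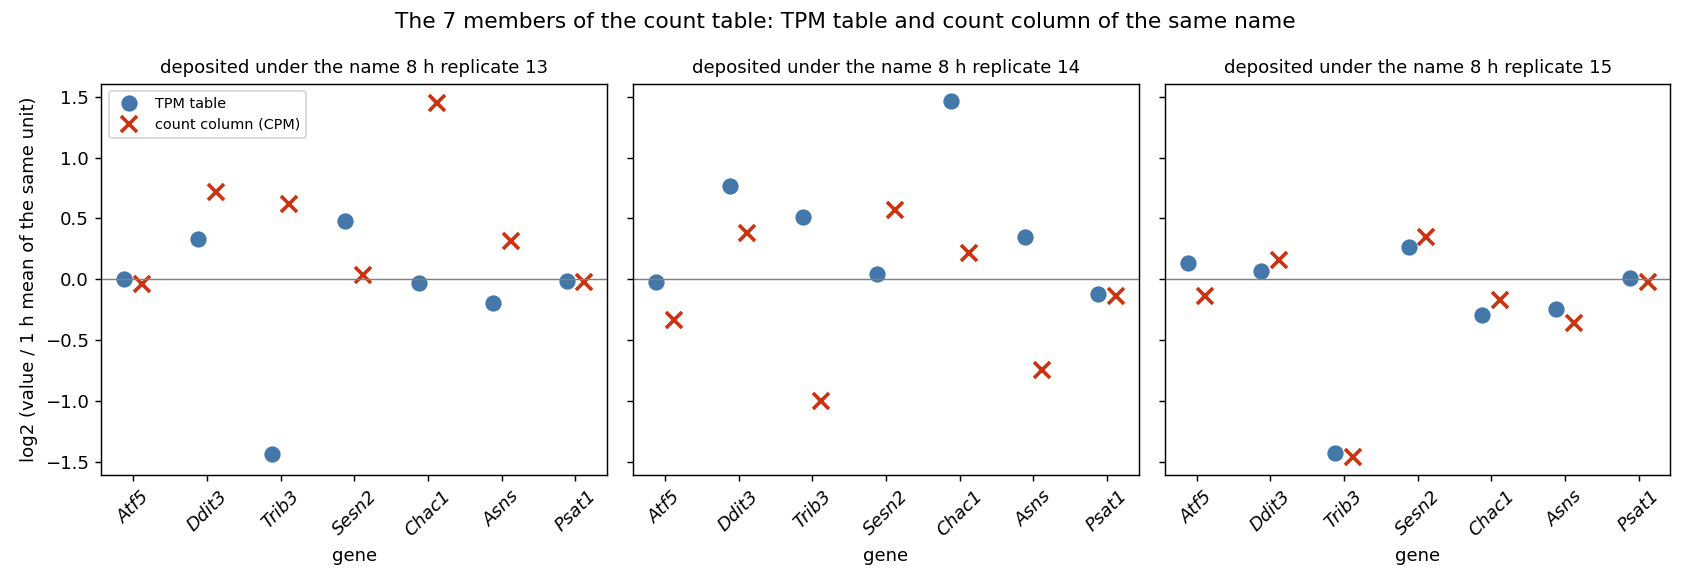
The 7 members of the count table at 8 h as log2 ratios to the 1 h mean of the same unit (vertical axis), in 3 panels for the replicate name under which a library was deposited, with circles for the TPM table and crosses for the count column scaled to its total (CPM). Chac1 is high in the TPM table named replicate 14 (11.7 TPM) and in the count column named replicate 13 (245 counts).

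The rest of the pathway was read from 5 lists ordered by role, which hold 71 genes, 70 of them with a mean of at least 1 TPM. In the limma fit of 8 h against 1 h, 0 of 70 were called in either direction (12 at an unadjusted p under 0.05), against 0.0433% of all genes. All 8 h libraries lay above both 1 h libraries for 22 of 70 genes and below for 7. The median log2 difference was 0.11, beside 0.10 for all genes. Those shares were 23.7% and 9.43% over all genes. Leaving out 8 h replicate 14, 3 of the pathway genes were called, beside 4.12% of all genes (573 of 13901), a share near that background. They were Slc1a5 (1.09 ± 0.12, SE, adjusted p = 0.00473), Atf3 (-1.18 ± 0.15, SE, adjusted p = 0.00812) and Nupr1 (-1.96 ± 0.16, SE, adjusted p = 0.00283), all by limma. In that fit every 1 h library is of series 1 and every 8 h library of series 2. Time therefore cannot be told apart there from the series or from the division by Xist and Y-linked genes.

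**Figure D4:**
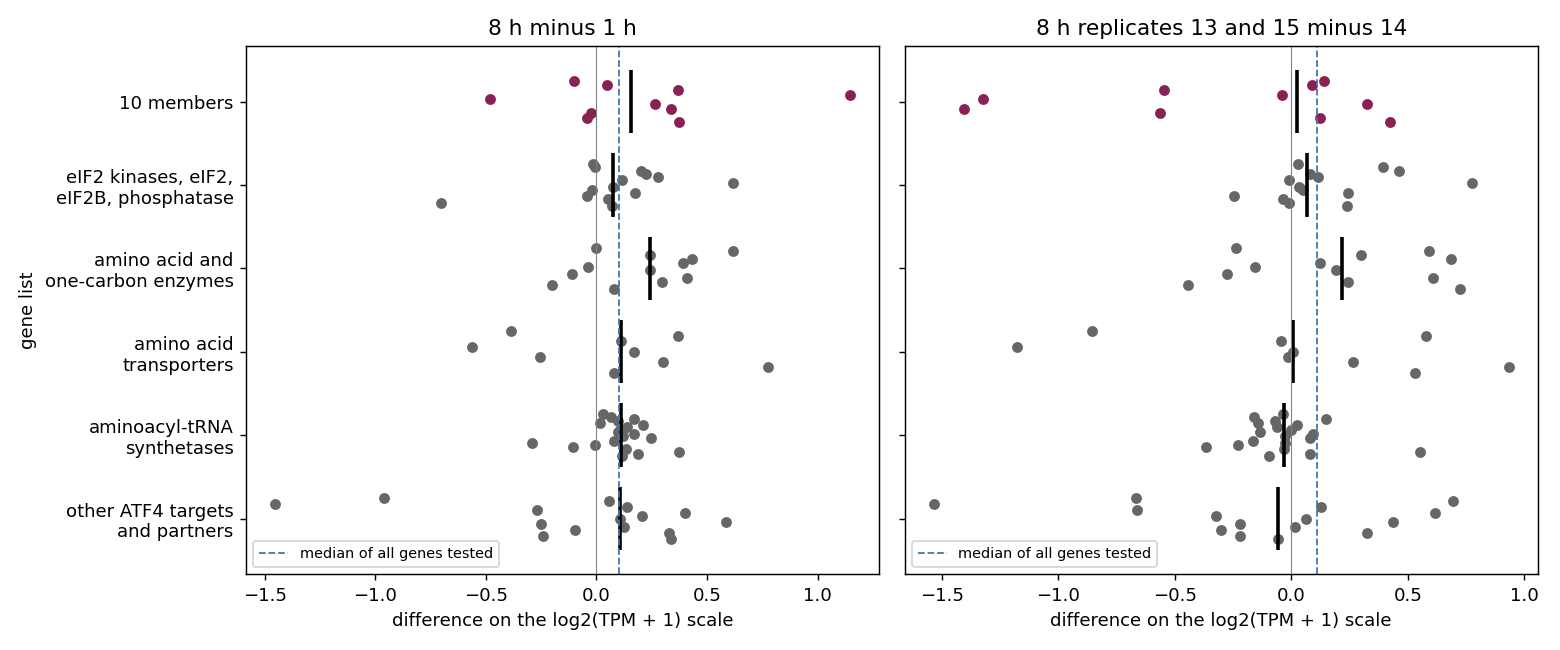
Differences on the log2(TPM + 1) scale (horizontal axes) for each gene (points) of the 10 members and the 5 pathway lists (vertical axis), with the median of each list as a black bar and the median of all genes tested as a dashed line. On the left, for 8 h minus 1 h, the list medians lie between 0.08 and 0.24, and on the right, for 8 h replicates 13 and 15 minus replicate 14, Chac1, Trib3, Slc7a3 and Nupr1 are the points below -1.

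Upstream of ATF4 are the 4 eIF2 kinases, the subunits of eIF2 and of its exchange factor eIF2B, and the subunits that direct a phosphatase to eIF2 (14 genes, 0 called, median log2 difference 0.08). The largest difference among them was that of Ppp1r15a, which encodes GADD34, the inducible phosphatase subunit that ends the response and is itself raised by ATF4. It measured 34.5 and 27.9 TPM at 1 h, and 18.8, 18.8 and 18.6 TPM at 8 h. The 8 h libraries were nearly equal and below both 1 h libraries, at 0.60 times the 1 h mean, with a log2 difference of -0.70 ± 0.13 (SE) and an adjusted p of 0.262 (limma). Eif2s3x, an X-linked eIF2 subunit gene, measured 156 and 137 TPM at 1 h, and 266, 157 and 274 TPM at 8 h. It followed the division by Xist and Y-linked genes, which is also that of the identifier series. Its Y-linked counterpart Eif2s3y, named after its values were seen, measured 109 and 75.6 TPM at 1 h, and 0.0253, 81.6 and 0 TPM at 8 h. Eif2s3x alone therefore does not give the level of both copies. The log2 difference of Eif2s3x over time was 0.62 ± 0.25 (SE, adjusted p = 0.403, limma). That of Eif2s1, the subunit that is phosphorylated, was 0.28 ± 0.11 (SE, adjusted p = 0.397, limma). The kinases themselves had log2 differences from -0.01 (Eif2ak1, the haem-regulated kinase) to 0.23 (Eif2ak4, the kinase GCN2), with the endoplasmic reticulum kinase gene Eif2ak3 at 0.20. They are named for their place in the pathway, chosen after their values were seen.

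The other amino acid, serine and one-carbon enzymes (12 genes, 0 called) had the highest list median, 0.24. Shmt1, the cytosolic serine hydroxymethyltransferase, measured 27.9 and 29.9 TPM at 1 h, and 51.8, 33.9 and 51.3 TPM at 8 h. All 8 h libraries were above both 1 h libraries, and replicate 14 was the nearest to them. The log2 difference of Shmt1 was 0.62 ± 0.20 (SE, adjusted p = 0.369, limma). Mthfd1l, a mitochondrial folate enzyme, and Gpt2, the mitochondrial alanine aminotransferase, followed with 0.43 ± 0.23 and 0.41 ± 0.22 (SE), and adjusted p of 0.454 and 0.453 (limma). In both, replicate 14 (23.7 TPM for Mthfd1l and 69.0 TPM for Gpt2) lay within the range of 1 h and replicates 13 and 15 above it.

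Of the 9 amino acid transporters 0 were called over time, with a median log2 difference of 0.11. Slc7a3, a cationic amino acid transporter, was called between the series, 1 of 2 genes called among the 70 of all lists beside 4.02% of all genes. With no filter on the mean TPM that call was lost, as 0 genes were called. Slc7a3 measured 4.16 and 4.68 TPM at 1 h, and 1.68, 5.32 and 1.91 TPM at 8 h. Like Trib3, it was highest in replicate 14 and lowest in replicates 13 and 15, with a log2 difference between them of -1.18 ± 0.19 (SE, adjusted p = 0.0233, limma). Slc1a5, a neutral amino acid transporter that takes up glutamine and is named after its values were seen, ran the other way with 5.77 and 5.62 TPM at 1 h, and 13.1, 6.44 and 13.3 TPM at 8 h.

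The 20 cytosolic aminoacyl-tRNA synthetase genes, which charge tRNAs and hold several ATF4 targets, lay close together. All 8 h libraries were above both 1 h libraries for 9 of 20, beside 23.7% of all genes, and 0 were called. The median log2 difference was 0.11, near that of all genes, and the range ran from -0.29 to 0.37. At the ends stood Vars with 0.37 ± 0.20 (SE, adjusted p = 0.456, limma) and Qars with -0.29 ± 0.10 (SE, adjusted p = 0.380, limma). Mars, the antisense neighbour of Ddit3, had 0.25 ± 0.09 (SE, adjusted p = 0.383, limma).

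In the last list, of other ATF4 targets and partners, 15 of 16 genes passed the filter and Fgf21, a secreted stress hormone, was listed at 0 in every library. Nupr1, which encodes a small stress-induced nuclear protein, was called between the series, though not with no filter on the mean TPM. It measured 9.78 and 8.26 TPM at 1 h, and 1.42, 6.42 and 1.72 TPM at 8 h. All 8 h libraries were below both of 1 h, and replicates 13 and 15 were far below replicate 14, by a log2 difference of -1.53 ± 0.19 (SE, adjusted p = 0.0126, limma). The difference over time was -1.45 ± 0.49 (SE, adjusted p = 0.370, limma). Atf3, a stress-induced factor that acts with ATF4 and is named after its values were seen, measured 7.20 and 6.06 TPM at 1 h, and 2.38, 4.32 and 2.32 TPM at 8 h. Its 8 h libraries too were all below those of 1 h, with replicate 14 the nearest to them (-0.96 ± 0.26, SE, adjusted p = 0.309, limma).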

How the data were processed

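The members and the pathway lists were chosen with earlier results of these data known. Poly-A selected, stranded paired-end libraries were aligned by the authors to GRCm38 with STAR in the nf-core/rnaseq workflow, and reads were counted with featureCounts. The submitters' processing notes name bcl2fastq 2.19.1.403, CASAVA and DESeq2. The deposited count table holds unnormalized counts per gene, for part of the genes only. The deposited table of each library holds TPM and a coverage signal per gene. The sources name no tool for these tables. Rows of 1 gene identifier were summed. Columns were assigned by name, and 0 value columns were left unassigned.

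TPM was tested with limma 3.58.1 (R 4.3.3) on log2(TPM + 1), with an intensity trend, over genes with a mean of at least 1 TPM. Counts were tested with edgeR 4.0.16 (quasi-likelihood, TMM), with DESeq2 1.42.0 as an alternative. P-values were adjusted by Benjamini-Hochberg over all genes, and a call needed adjusted p of 0.05 or less and a log2 change above 1. The log2(TPM + 1) scale understates changes of low genes such as Trib3. The scripts were tested on simulated data. Replicates are samples the labels number separately, and p-values measure the spread between them. The methods describe 1 replicate as cells of 1 animal. The text names all members, and of each pathway list the genes called over time or between series, otherwise the 3 with the largest difference over time; genes named outside this rule are marked. Alternatives covered the pseudocount, filters, scaling, test, identifier series, thresholds and each library left out. Promoters are from RefSeq.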

Additional observations from a re-analysis of the deposited data

How the results depend on the processing

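No paired analysis was possible because the 1 h and 8 h libraries share no replicate number. By TPM, 6 genes were called between 8 h and 1 h. This was 0 with no filter on the mean TPM and 19 with the identifier series as a term, and leaving out 1 library gave 0 to 573, the highest without 8 h replicate 14. Pathway genes called ranged from 0 to 3 when 1 library was left out, again with the highest without 8 h replicate 14. In the count table, 0 genes were called with all columns and 145 with the columns of series 1 alone, whose 8 h column matched no TPM table of an 8 h library. Between the series 558 genes were called, 0 with no filter and 1261 with no fold threshold. Leaving out 1 library gave 82 to 642, the count being 141 when 8 h replicate 13 was left out and 82 when replicate 15 was. The causes were not tested. In the fits over time without 8 h replicate 14, time cannot be told apart from the series. For the members' differences over time, 79 of 100 alternative values moved by less than the replicate spread, 21 moved by more, and 13 had the other sign. That spread was taken within each time and includes the distance of replicate 14 from the other 8 h libraries. For Chac1 the change from 0.34 to -0.13 without replicate 14 thus counted as moving by less. No member was called over time with all libraries. The values with the identifier series as a term and with series 1 alone were equal, and both are counted. Over genes with a mean of at least 1 TPM, 8 h replicate 14 lay nearer to the 1 h libraries than to replicates 13 and 15. Its median absolute log2 difference was 0.143 and 0.17 from the 1 h libraries, and 0.235 and 0.241 from 8 h replicates 13 and 15. The 1 h libraries differed from each other by 0.136. With 2 and 3 libraries, and those of 8 h not lying together, small differences were not detectable.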
